A study of Mus musculus with 20 samples.

Results

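Fibroblasts secrete and remodel the extracellular matrix, and in reprogramming to pluripotent cells their matrix and contractile genes are known to be silenced. The chromatin of 41 fibroblast matrix and cytoskeleton genes, among 21938 protein-coding genes on the chromosomes used, was followed in all 20 libraries of an ATAC-seq series of reprogramming. The genes were listed by name as genes of fibroblasts, with earlier results of these data known. Among them, Dab2 and Thbd are named in the study of these samples, so their direction is not independent evidence. They comprise 9 fibrillar and associated collagens (Col1a1, Col1a2, Col3a1, Col5a1, Col5a2, Col6a1, Col6a2, Col6a3 and Col12a1), 6 matrix glycoproteins (Fn1, Postn, Sparc, Thbs1, Thbs2 and Tnc), 4 proteoglycans (Dcn, Lum, Vcan and Bgn), 6 genes of elastic fibres and of the cross-linking of collagen and elastin (Fbn1, Fbln2, Fbln5, Lox, Loxl1 and Loxl2), 4 proteases and protease inhibitors (Mmp2, Mmp14, Timp2 and Timp3), 6 genes of the cell surface or of endocytosis (Pdgfra, Pdgfrb, Thy1, Cd44, Thbd and Dab2) and 6 cytoskeletal or contractile genes (Vim, Acta2, Tagln, Cald1, Cnn1 and S100a4).

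In ATAC-seq the transposase Tn5 inserts adapters into DNA that is not wrapped in nucleosomes, so that a peak marks an accessible site. The starting cells were mouse embryonic fibroblasts (MEFs) with the Oct4-GFP (OG2) reporter, from embryos of OG2 fathers and wild-type mothers of another strain, and 1 library was made from MEFs that had received no virus. The other fibroblasts were infected with pMXs retroviruses that carried Oct4 and either Nanog or NanogN70, in which NANOG is preceded by the BRG1-binding N-terminus of SS18, a protein of the BAF remodelling complex (the study calls it NanogBiD). Both paths were sampled once on each of 8 days, namely 0, 1, 3 and 5 and then 7, 8, 10 and 12, day 0 being the end of the infection. The cells were kept in iCD3 medium and then, from day 7, in N2B27 medium with 2i and LIF, the medium in which the 3 libraries of embryonic stem cells (ESCs) from OG2 embryos were also grown. The labels name neither the embryos nor the cultures behind each library, and the source field of the ESC samples names MEFs although their titles name ESCs. The days of a path are successive samples of 1 time course and not replicates, so a mean over days describes that course. Since bulk cells were profiled, fewer cells with an open site and less opening in each cell cannot be told apart.

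Collagens, glycoproteins and proteoglycans form the fabric of connective tissue, lysyl oxidases cross-link it, and metalloproteinases with their inhibitors set how fast it turns over. Smooth muscle actin and its partners give activated fibroblasts their contractile force. In reprogramming, the loss of this mesenchymal programme is known to go along with a gain of epithelial features.

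A promoter was taken as accessible if a peak lay within 2 kb of a start site of the gene, and a distal region was a merged peak region within 20 kb of the gene but over 2 kb from its start sites. There were 778 distal regions near the 41 genes, of 213552 near all protein-coding genes, and 281 of them were MEF-only, with a peak in MEFs but in none of the ESC libraries. As examples of such sites, the 51 bp around the MEF summit are shown for the 6 MEF-only regions with the highest MEF peak scores, at most 1 per gene, that held the AP-1 motif TGACTCA on either strand, to which FOS and JUN proteins bind. The letters were read from GRCm38 (mm10) on the plus strand, and capitals mark the motif.
Acta2, chr19:34265817-34265867: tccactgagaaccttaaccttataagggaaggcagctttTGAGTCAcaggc
Dcn, chr10:97516606-97516656: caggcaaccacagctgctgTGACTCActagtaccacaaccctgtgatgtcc
Timp2, chr11:118346899-118346949: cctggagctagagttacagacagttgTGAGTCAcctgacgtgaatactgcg
Col5a1, chr2:27874765-27874815: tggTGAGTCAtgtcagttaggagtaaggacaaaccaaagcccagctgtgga
Cd44, chr2:102873411-102873461: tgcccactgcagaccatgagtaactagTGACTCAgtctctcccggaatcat
Col12a1, chr9:79589468-79589518: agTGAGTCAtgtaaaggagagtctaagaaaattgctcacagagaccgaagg

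The merged region of the Acta2 window lay 9941 bp upstream of the gene and that of the Col5a1 window 11487 bp upstream. The regions of Dcn, Timp2 and Cd44 were intronic, and that of the Col12a1 window lay 9314 bp downstream. Apart from the Col5a1 region, these had no peak after day 3 in either path. The Acta2 and Cd44 regions had a peak on day 0 of each path and on no later day. The Dcn region was open on days 0 and 1 with Nanog and on day 0 with NanogN70, the Col12a1 region on days 0 and 1 of both paths, and the Timp2 region on days 0, 1 and 3 with Nanog and on days 0 and 1 with NanogN70. The Col5a1 region was open on days 0, 1, 7 and 8 with Nanog and on day 0 with NanogN70.

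Set against these are the summit windows of the MEF-only regions that were open in the most time course libraries, and of the region with the largest excess of NanogN70 days. The 5 motifs searched were AP-1 TGACTCA, TEAD GGAATG, RUNX TGTGGTT, the octamer ATGCAAAT and the CArG box, to which SRF binds. None was found in these 5 windows on either strand, and this says only that those letters were not there. The windows above were chosen for the AP-1 motif and the 5 here for their days. No link between the motif and the days open can therefore be read from them.
Timp2, chr11:118327711-118327761: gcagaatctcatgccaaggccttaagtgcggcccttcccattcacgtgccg
Col1a1, chr11:94928844-94928894: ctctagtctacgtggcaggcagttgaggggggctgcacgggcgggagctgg
Timp2, chr11:118365257-118365307: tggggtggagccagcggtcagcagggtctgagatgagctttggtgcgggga
Col1a2, chr6:4488508-4488558: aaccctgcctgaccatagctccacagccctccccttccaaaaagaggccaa
Fbn1, chr2:125516806-125516856: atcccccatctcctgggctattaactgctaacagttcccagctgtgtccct

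The intronic Timp2 region and the Col1a1 region, 6956 bp upstream of the gene, had a peak on all 8 days of both paths although no ESC library had one. The second Timp2 region, 9102 bp upstream, and the Col1a2 region, 16081 bp upstream, were open on 8 days with Nanog and on 7 days with NanogN70. The Fbn1 region, 8680 bp upstream, was open on 0 days with Nanog and on 7 days with NanogN70, with pileups of 6 to 12 tags where it had a peak, close to the 5 to 7 tags at which peaks passed the threshold.

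Depth per library is unknown, because the sources used here give no read numbers, so peak numbers and pileups are its only guides. The libraries held 44126 to 125467 peaks. The pileup is the number of tags that cover a summit, and its median at the 14217 sites accessible in each of the 20 libraries, called the scale below, ran from 16 to 60. The highest scale, 60, was that of NanogN70 on day 3. That library also had promoter peaks at 12 of 12 leukocyte markers, against 3 to 6 on the other NanogN70 days and 2 to 6 with Nanog, 7 in MEFs and 8, 9 and 8 in ESCs, and the part of this in the results was not tested. In MEFs 40 of the 41 members and 7 of 12 pluripotency markers had a promoter peak, and in each ESC library 12 of 12 pluripotency markers did. Any 2 of the 3 ESC libraries had 62.9% to 65% of open regions in common.

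Almost every promoter of the list was accessible in MEFs. The MEF library had a promoter peak at 40 of 41 members, against 70.3% of all protein-coding genes. The exception was Loxl2, a lysyl oxidase, which had no promoter peak in any of the 20 libraries. The 3 ESC libraries had promoter peaks at 32, 34 and 29 members (78.0%, 82.9% and 70.7%), against 72.3%, 72.8% and 71.1% of all genes. In all 20 libraries 23 members had a promoter peak, as did 53.8% of all genes (54% in all 16 time course libraries).

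More than a background share of the members had a stronger promoter signal in MEFs than in ESCs. Each pileup was divided by the scale of its library, and values under the detection floor of 0.207 were raised to it. The MEF value was at least 2-fold above every ESC library at 23 of the 40 members with a peak, against 4.3% of 16952 promoters, and 2-fold below every ESC library at 0 members, against 6.64%. The median fold of MEF over the ESC mean was 2.38 among members and 0.977 among all promoters. MEF has 1 library, so these are differences between libraries with no test.

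By role, the MEF promoter stood 2-fold above every ESC library at 8 of 9 collagens, 3 of 6 glycoproteins, 2 of 4 proteoglycans, 2 of 6 elastic fibre and cross-linking genes, 1 of 4 proteases and inhibitors, 3 of 6 cell surface and endocytic genes and 4 of 6 cytoskeletal genes. Cd44, the hyaluronan receptor, had a pileup of 80 in MEFs and of 7, 8 and 6 in ESCs, and was 9.67-fold higher on the scaled values. Acta2, smooth muscle actin, had a pileup of 76 in MEFs and no peak in ESCs, 9.42-fold above the floor. S100a4, a calcium-binding protein long used to mark fibroblasts, had 65 in MEFs and 0, 8 and 0 in ESCs, at least 8.01-fold higher on the scaled values, since 2 of the 3 ESC libraries had no peak and were set to the floor.

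Other members differed less between MEFs and ESCs. The collagen gene Col1a2 had 68 tags in MEFs and 12, 14 and 8 in ESCs, and Mmp14, a membrane-bound metalloproteinase, had 47 and 8, 6 and 8. Col1a1, whose product pairs with that of Col1a2 in type I collagen, had 50 and 22, 20 and 15, and did not reach 2-fold over every ESC library. Pdgfra, a receptor for platelet-derived growth factor, had 41 in MEFs and 48, 52 and 46 in ESCs, with a scaled fold of 0.708, and was the only member below 1.

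Members without an ESC promoter peak were Col3a1, Col6a3, Postn, Lum, Bgn and Acta2, together with Loxl2. A MEF peak and no ESC peak was found at 6 members and at 2.83% of all genes. Col6a1 and S100a4 had one in 1 ESC library, and Col5a2, Dcn and Cnn1 in 2. A promoter peak in MEFs and in at most 1 ESC library was thus found at 8 of 41 members, and at 3.62% of all genes. Apart from Acta2 and S100a4 these had low MEF pileups, of 9 to 23, and a low peak can be lost under the threshold of a library. Their MEF summits also held few CpG dinucleotides. The ratio of observed to expected CpG in the 301 bp around the summit had a median of 0.216 at these 8 members and of 0.548 at the 29 with peaks in all ESC libraries, and for other genes of the same classes the medians were 0.196 and 0.765.

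**Figure D1:**
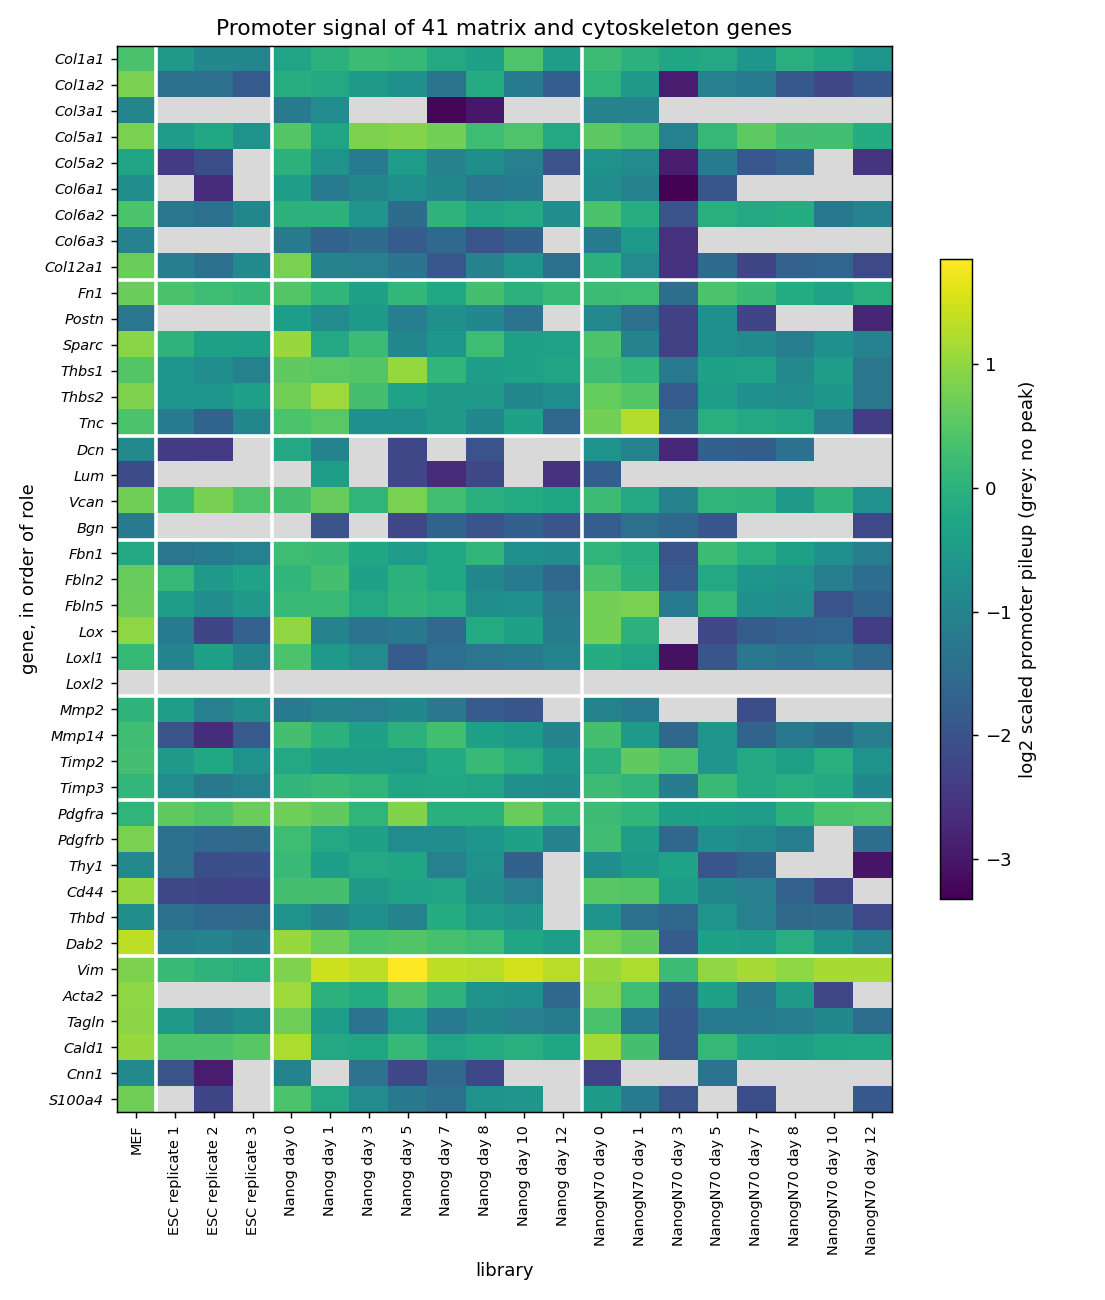
Log2 of the promoter pileup divided by the library scale, for 41 genes (rows, in order of role, white lines between roles) in 20 libraries (columns), with grey for no peak. The MEF column is filled for 40 genes and the ESC columns for 32, 34 and 29. The highest single value of the time course is that of Vim on day 5 with Nanog.

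The number of members with a promoter peak was lowest late in both paths, where it overlapped the ESC range. With Nanog it was 38, 39, 36, 39, 39, 40, 36 and 29 from day 0 to day 12, in the order of the sampled days. With NanogN70 it was 40, 38, 35, 35, 34, 30, 27 and 31 on the same days. The Nanog libraries thus stayed at 36 or more through day 10, whereas the NanogN70 libraries reached 30 on day 8 and 27 on day 10.

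Averaged over days, 37 members had a promoter peak with Nanog and 33.75 with NanogN70, a difference of -3.25 (SD 4.59 of the daily differences, n = 8), with fewer on 6 of 8 days and more on 2. Among all protein-coding genes the mean share was 64.3% with Nanog and 65.5% with NanogN70, higher by 1.13 percentage points and on 5 of 8 days. The daily differences of the members spread more widely than their mean, and no test was made of this score.

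**Figure D2:**
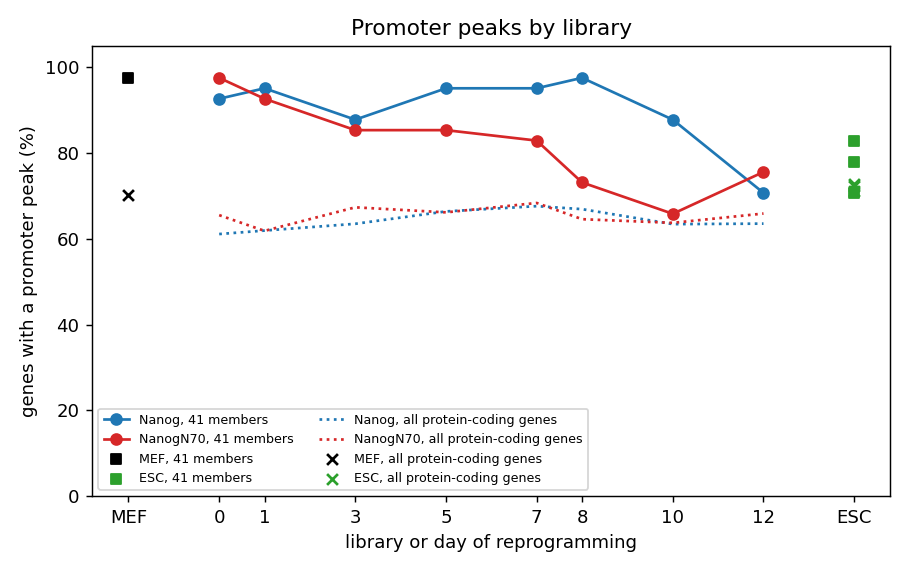
Percent of genes with a promoter peak (vertical axis) by library or day (horizontal axis), with lines for each path, squares for members and crosses for all protein-coding genes in MEFs and ESCs. Member promoters with Nanog (solid blue) stay at 36 or more of 41 until day 10, those with NanogN70 (solid red) drop to 27 on day 10, and the dotted lines of all genes lie between 61.1% and 68.4%.

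Gene by gene, 14 members had a promoter peak on fewer days with NanogN70 than with Nanog, 2 on more days (Dcn and Thbd) and 25 on as many. Of all protein-coding genes, 6.55% had one on fewer days with NanogN70 and 11.8% on more. Mmp2, a gelatinase, was open on 7 days with Nanog and on 3 with NanogN70. Col6a3 had 7 and 3 days, its partner Col6a1 7 and 4, Lum, a small proteoglycan of collagen fibrils, 5 and 1, and Cnn1, the actin-binding protein calponin, 5 and 2. In these genes a peak was often close to the threshold, with time course pileups of 4 to 20.

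The average level of each promoter was then compared between paths with limma, on log2 of the scaled pileup with day as a block, values below a floor of 0.313 raised to it, and Benjamini-Hochberg adjustment over 14857 promoters. No promoter passed an adjusted p of 0.05, member or not (0% called). At an unadjusted p below 0.05 there were 2524 promoters, or 17%, and 18 of the 40 members tested. The fitted difference was negative, that is lower with NanogN70, at 34 of 40 members and positive at 6, with a median of -0.31 against 0.01 for all promoters.

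S100a4 came nearest to the threshold. Its pileups with Nanog were 21, 14, 13, 12, 14, 20, 15 and 0 from day 0 to day 12, and with NanogN70 17, 7, 15, 0, 9, 0, 0 and 11. The fitted difference was -0.69 (SE 0.14, limma adjusted p = 0.0943, n = 16 libraries). A peak was missing in 1 Nanog library and in 3 NanogN70 libraries.

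Dab2 and Thbd are somatic genes, Dab2 encoding an endocytic adaptor and Thbd the thrombin receptor thrombomodulin. Dab2 had the highest MEF promoter pileup of the list, 99, and 15, 19 and 13 in ESCs. Its pileups were 33, 26, 30, 38, 48, 38, 19 and 18 with Nanog and 42, 24, 17, 18, 28, 25, 18 and 20 with NanogN70, so its scaled level was lower with NanogN70 on 8 of 8 days. The log2 difference was -0.66 (SE 0.20, limma adjusted p = 0.154) and did not pass. Thbd had 23 tags in MEFs, and its difference was -0.47 (SE 0.17, limma adjusted p = 0.210).

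In single genes the paths often lay close together. Among collagens the log2 difference ran from -0.53 at Col5a2 to 0.11 at Col6a3, with a median of -0.26. All 6 surface genes and all 6 cytoskeletal genes had a negative difference, with medians of -0.47 and -0.34, and none passed the test. Tnc, Timp2, Col3a1, Bgn, Timp3 and Col6a3 had the 6 positive values, the highest being 0.15 at Timp2. The sign depended on the floor at some of them. With no floor and a missing peak as 0, the scaled mean was lower with NanogN70 at Col6a3 (0.164 against 0.285). The same held at Col3a1 (0.125 against 0.154) and Bgn (0.185 against 0.198). At Tnc, Timp2 and Timp3 the mean was higher with NanogN70. When both the peak rule and the floor were changed, keeping only promoters with a peak in all 16 libraries (23 members) and raising no value, Mmp14 (-0.79, limma adjusted p = 0.0477) and Thbs1 (-0.72, limma adjusted p = 0.0432) were lower with NanogN70. In that fit 0.676% of 11843 promoters were lower.

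**Figure D3:**
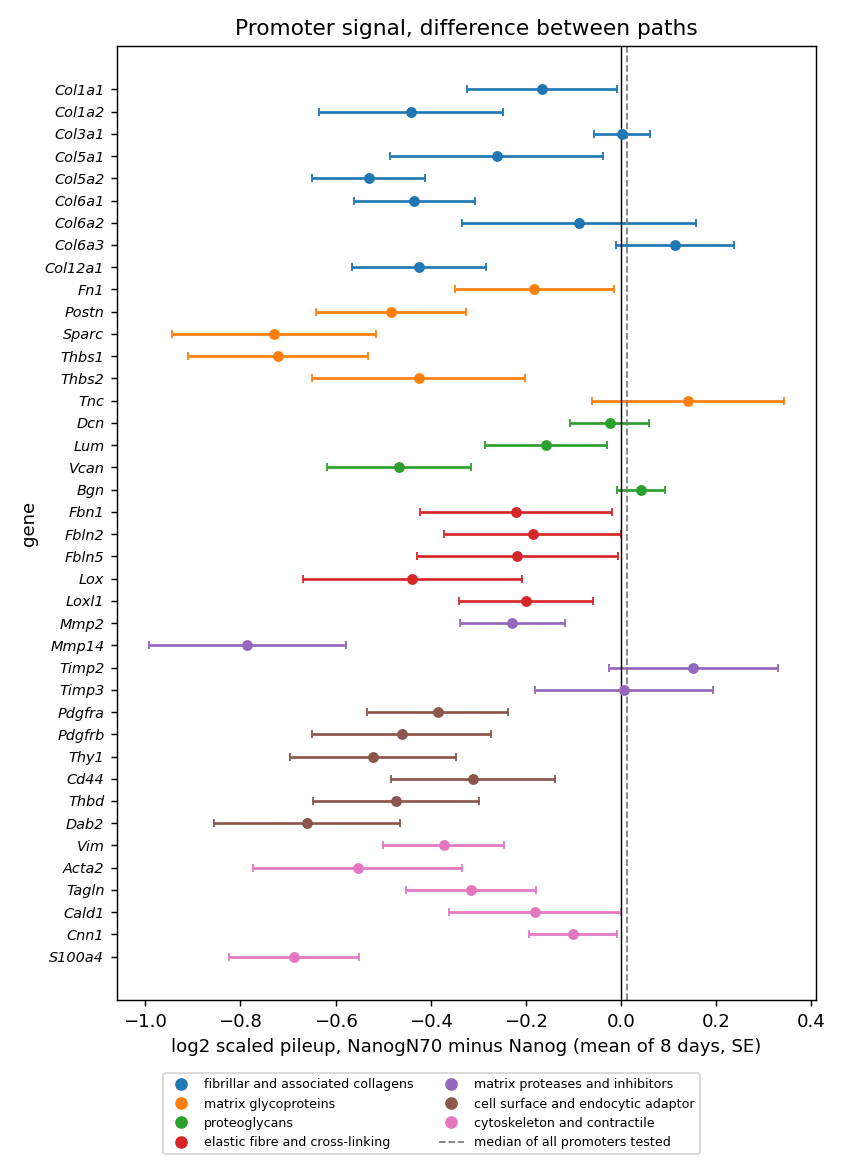
Log2 difference of scaled promoter pileup, NanogN70 minus Nanog, averaged over 8 days with its SE (horizontal axis), for the 40 members tested (rows, coloured by role). Of the 40 points 34 lie left of zero, the dashed line at 0.01 is the median of 14857 promoters, and none passed an adjusted p of 0.05.

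Over days, few promoters of the list passed the test, all of them falling. With Nanog, Cd44 and Thy1 fell, 2 of 40 members, where 0.767% of all promoters fell and 0.774% rose. With NanogN70, Cd44, Fbln5, Tnc, Acta2, Col1a2 and Thy1 fell, 6 of 40 members, where 2.91% of all promoters fell and 4.17% rose. No member rose in either path. With the median pileup of all summits as the scale, these calls were lost except that of Cd44 with NanogN70, and 0% of all promoters fell with Nanog and 0.237% with NanogN70. The fitted slope was below 0 at 37 members in each path, with medians of -0.07 log2 per day in both, against 0.00 for all promoters.

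Cd44 had pileups of 20, 20, 16, 22, 31, 19, 11 and 0 with Nanog and of 34, 22, 45, 12, 18, 8, 6 and 0 with NanogN70. Its slope was -0.15 log2 per day with Nanog (SE 0.03, limma adjusted p = 0.0260) and -0.20 with NanogN70 (SE 0.03, limma adjusted p = 0.00164). No peak was left on day 12 of either path. Thy1, a glycoprotein of fibroblasts and T cells, had 18, 12, 20, 23, 18, 20, 7 and 0 with Nanog and 14, 11, 48, 6, 12, 0, 0 and 5 with NanogN70. Its slopes were -0.15 (SE 0.03, limma adjusted p = 0.0283) and -0.11 (SE 0.03, limma adjusted p = 0.0344). Both genes are also expressed by leukocytes. In the day 3 NanogN70 library, which had peaks at the 12 leukocyte markers, the scaled value of Cd44 was 0.75, below the 1.42 of day 0, and that of Thy1 was 0.8, the highest of that path. Without day 3 both genes still fell in both paths.

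Acta2 had 34, 16, 21, 37, 39, 20, 14 and 8 with Nanog and 45, 19, 18, 18, 16, 18, 6 and 0 with NanogN70, and fell with NanogN70 by 0.17 log2 per day (SE 0.05, limma adjusted p = 0.0405). Fbln5, which helps to assemble elastic fibres, had 18, 18, 20, 29, 36, 19, 14 and 10 with Nanog and 41, 28, 26, 25, 23, 15, 7 and 13 with NanogN70, where it fell by 0.20 (SE 0.04, limma adjusted p = 0.0101). Tnc, the matrix glycoprotein tenascin C, fell by 0.18 with NanogN70 (SE 0.05, limma adjusted p = 0.0436), from 41 and 38 tags on days 0 and 1 to 13 and 8 on days 10 and 12. In Acta2 and Fbln5, days 10 and 12 held the lowest scaled values of the NanogN70 path or no peak, and in Tnc day 12 held the lowest.

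The slopes are not shown to differ between paths. The difference of slopes passed at 0% of promoters and at 0 members by limma, and at an unadjusted p below 0.05 there were 575 promoters (3.87%) and 0 members. The counts of falling members rested on single days. Without day 3 in both paths 10 of 40 members fell with Nanog, where 2.15% of all promoters did, and 17 with NanogN70, where 5.22% did, so the counts rose among all promoters too. Without 1 of the other days 0 to 3 and 1 to 5 members fell, and 0.00678% to 1.46% and 0.413% to 3.72% of all promoters. Leaving out day 0, 1, 8, 10 or 12 left 0 with Nanog, and leaving out day 0, 10 or 12 left 1 with NanogN70.

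Vim did not follow this course. Vim, the intermediate filament protein of mesenchymal cells, had 69 tags in MEFs and 36, 39 and 28 in ESCs. Its pileups with Nanog were 29, 44 and 58 on days 0, 1 and 3 and 97, 79, 65 and 59 on days 7, 8, 10 and 12, and highest on day 5 (3.61 times the scale of that library). They were 50, 37, 70, 46, 85, 51, 63 and 93 with NanogN70. The scaled mean was 2.62 with Nanog and 2.03 with NanogN70, both above the MEF value of 1.77, and the slopes of 0.02 log2 per day did not pass the test (limma adjusted p = 0.792 and 0.651). Fn1, fibronectin, likewise had slopes of -0.01 in both paths, with 62 tags in MEFs, 17 to 40 with Nanog and 19 to 44 with NanogN70.

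Genes of the same kind outside the list gave smaller median values. Of 35 other matrix genes 34 had a MEF promoter peak and 9 stood 2-fold above every ESC library, with a median fold of 1.33. The path difference had a median of -0.15 and was negative at 26 of 30 tested. With NanogN70, Col16a1 and Pcolce fell and Col11a1 rose, and with Nanog none passed. Of 18 other cytoskeleton genes, 5 stood 2-fold above every ESC library, the median path difference was -0.02, Zyx fell in both paths, and with NanogN70 Tpm4 fell and Actb rose. The epithelial markers had a promoter peak at a mean of 3.63 of 9 genes with Nanog and 5.88 with NanogN70. In MEFs 6 of them had one and in each ESC library 9, and on day 0 there were 1 with Nanog and 5 with NanogN70. The endothelial markers had one at a mean of 4 and 4.88 of 8 genes, against 6 in MEFs and 5 in each ESC library.

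Distal regions near the members were more often MEF-only than those near other genes. Of the 778 regions, 281 or 36.1% were MEF-only against 20.5% near all genes, and 91 or 11.7% were ESC-only (at least 2 ESC libraries, not MEFs) against 17.5%. Regions shared by MEFs and all 3 ESC libraries made up 5.53% against 9.44%, and regions seen only in the time course 36.5% against 38.7%. There were 6 regions near 2 members at once. The MEF library had 376 distal peaks near members and the ESC libraries 177, 187 and 149.

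Large genes held the most MEF-only regions. Fbn1, which encodes fibrillin-1 of the microfibrils, had 31 over a gene of 207 kb and its flanks, and Cald1, encoding caldesmon, which binds actin and myosin, had 23. In the other roles Col12a1 had 15, Cd44 and Dab2 12 each, Tnc 10, Timp2 9 and Bgn 7. Of the 281 regions 131 were intronic, 17 exonic, 64 upstream and 69 downstream. Cnn1, S100a4 and Fn1 had 1 each.

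**Figure D4:**
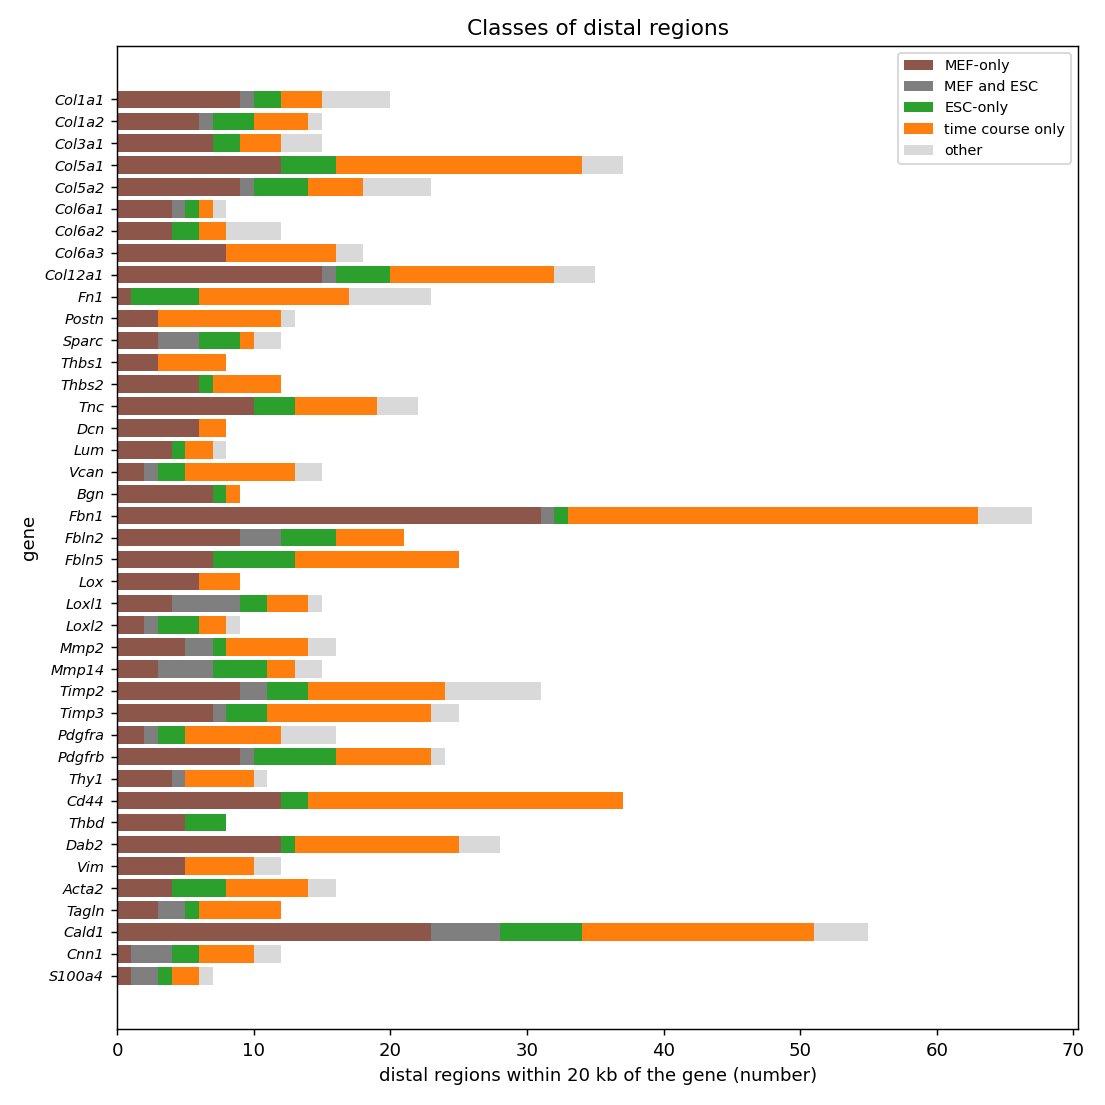
Number of distal regions within 20 kb of each member (horizontal axis, bars stacked by class) for 41 genes (rows). MEF-only regions (brown) are most numerous at Fbn1 (31) and Cald1 (23).

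Most MEF-only regions near members had no peak on day 1. Of the 281 regions, 37.0% had a peak on day 0 with Nanog and 46.3% with NanogN70 (32.6% and 38.3% near other genes). There were 111 with none in any of the 16 time course libraries, a count not made near other genes. With Nanog the share was 18.9%, 13.9%, 14.2%, 16.7%, 21.0%, 14.6% and 6.76% on days 1, 3, 5, 7, 8, 10 and 12. With NanogN70 it was 16.7%, 11.4%, 9.61%, 10.3%, 8.19%, 2.85% and 2.85%. Both paths had their lowest shares late, on day 12 with Nanog, after 21.0% on day 8, and on days 10 and 12 with NanogN70. In MEFs the share is 100% by definition. Of the 43 member regions shared by MEFs and all 3 ESC libraries, 65.1% to 83.7% had a peak in the Nanog libraries. In the NanogN70 libraries 65.1% to 90.7% of them did. Peaks were thus also missing at sites open in both cell types, and the part of detection in the MEF-only shares was not tested.

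The share was lower with NanogN70 on 7 of 8 days, all but day 0. The mean was 17.9% with Nanog and 13.5% with NanogN70, and the difference of -4.36 percentage points had an SD of 6.80 between days. With the same number of top-scoring peaks in each library it was -12.9 points. The libraries differ in their peaks, with 76740 for Nanog and 55339 for NanogN70 on day 8 and 50716 and 44126 on day 10, and the part of this in the result was not tested. On day 8, 21.0% (95% exact interval 16.4 to 26.2) stood against 8.19% (5.26 to 12.0), and on day 10, 14.6% (10.7 to 19.3) against 2.85% (1.24 to 5.53). These intervals cover counting error only. Near other genes the difference of means was -4.46 points, of about the same size.

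**Figure D5:**
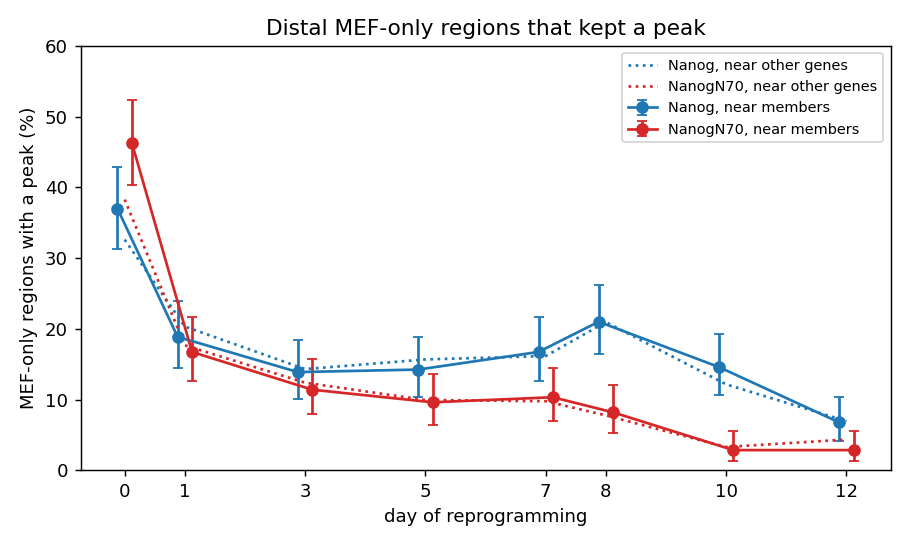
Percent of distal MEF-only regions with a peak (vertical axis) by day (horizontal axis), near members (solid, with 95% exact intervals, 281 regions) and near other genes (dotted, 43441 regions), in both paths. On day 0 members lie above other genes (37.0% against 32.6% with Nanog, 46.3% against 38.3% with NanogN70), from day 1 on the values near other genes lie within the intervals of the members, and the NanogN70 line lies below the Nanog line.

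By region, 81 of these 281 had a peak on more days with Nanog, 47 on more days with NanogN70 and 42 on as many days above 0. These counts were not made near other genes, so they are not shown to be particular to the members. An intronic Col5a1 region (chr2:27936177-27937067) had a peak on 8 Nanog days, with pileups of 7 to 17, and on days 0 and 1 with NanogN70. A region in Timp3 (chr10:86310329-86311023), which also lies within Syn3, was open on 7 Nanog days and on 2 NanogN70 days, from 64 tags in MEFs. Regions downstream of Col6a3 (chr1:90750000-90750578) and upstream of Bgn (chrX:73465319-73465873) were open on 7 Nanog days and on day 0 with NanogN70. The reverse was seen at an intronic Col12a1 region (chr9:79689474-79690568), open on 2 Nanog days and 7 NanogN70 days.

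The strongest MEF-only regions of each role did not share 1 course. An intronic Loxl1 region (chr9:58299130-58299928) had the highest MEF pileup of these and was open on 6 Nanog days and on days 0 and 8 with NanogN70. An intronic Col6a3 region (chr1:90834122-90835241) had 49 tags in MEFs and was open on 6 and 4 days, and a Postn region 2164 bp upstream (chr3:54358466-54358945) on 7 and 5 days. A Thy1 region 3231 bp upstream (chr9:44039692-44040153) was open on 5 Nanog days and on day 0 with NanogN70. A Bgn region 6567 bp upstream (chrX:73476353-73477035) had 33 tags in MEFs and a peak on day 0 only, in both paths.

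ESC-only regions near members opened rarely. Of the 91, a mean of 6.04% had a peak with Nanog and 10.0% with NanogN70, higher on 6 of 8 days and lower on 1, and near other genes the means were 5.13% and 9.74%. The highest value, 23.1% (95% exact interval 14.9 to 33.1), was that of NanogN70 on day 7. A region 8850 bp downstream of S100a4 (chr3:90614895-90615999), which overlaps S100a6, was open from day 3 on in both paths. A region 4948 bp downstream of Fbln2 (chr6:91277488-91277873) was open on 4 Nanog days and on 7 NanogN70 days, and one 4369 bp downstream of Sparc (chr11:55389851-55390131) on 3 and 5.

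Fitted one by one, 46387 distal regions near protein-coding genes were tested, 171 of them near members. No region differed between paths (limma adjusted, 0% called), with 22 member regions and 5217 of all (11.2%) at an unadjusted p below 0.05, and the median was -0.06 near members and 0.01 over all. With a peak required in all 16 libraries and no floor, 4 of 20 member regions were lower with NanogN70, where 2.35% of 9079 regions were lower and 0.716% higher. With Nanog 4 member regions fell, where 0.832% of all regions fell and 0.119% rose, and with NanogN70 16 fell and 1 rose, where 7.11% fell and 2.46% rose. The NanogN70 counts were therefore near the background share. The slopes differed between paths at 0 regions (limma), and at 8 member regions and 6.56% of all at an unadjusted p below 0.05.

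The 4 regions that fell with Nanog lay near S100a4, Col6a3, Vim and Tnc. With the median pileup of all summits as the scale, 0 member regions and 0.00395% of all regions fell with Nanog. With NanogN70, 19 of 186 member regions and 5.6% of all regions fell on that scale. The S100a4 region (chr3:90611789-90613610), shared by MEFs and ESCs, fell by 0.16 log2 per day with Nanog (SE 0.02, limma adjusted p = 0.0304) and by 0.19 with NanogN70 (SE 0.02, limma adjusted p = 0.00136). A Vim region (chr2:13558276-13559165) fell by 0.21 (SE 0.05, limma adjusted p = 0.0455) and 0.27 (SE 0.05, limma adjusted p = 0.0110). The 1 region that rose with NanogN70 lay near Fn1 (chr1:71614542-71615238), was seen only in the time course, and gained 0.11 log2 per day (SE 0.03, limma adjusted p = 0.0399). It still passed without day 3, but not when any other single day was left out. Without day 5 or day 12 a region near Thy1 rose instead. The counts of falling regions too rested on single days. Without day 3 they were 12 falling regions of 160 with Nanog, where 7.11% of all regions fell, and 33 with NanogN70, where 14.3% fell. Without 1 of the other days they were 0 to 6 and 1 to 17, and 0% to 2.5% and 0.0246% to 7.37% of all regions fell. With Nanog 0 were left without day 0, 1, 7, 8, 10 or 12, and with NanogN70 1 was left without day 0, 1 or 10, 2 without day 7, 3 without day 8 and 10 without day 12.

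The AP-1 motif of the sequences above was present in 31 of 281 MEF-only member windows, or 11.0% (95% exact interval 7.62 to 15.3), against 13.6% of MEF-only windows elsewhere and 1.10% of ESC-only member windows. In windows reaching 50 bp to each side of the summit it was in 16.7% (12.6 to 21.6) of MEF-only member windows and in 24.1% elsewhere, which lies above that interval. It was spread over many genes, with 3 windows each at Col12a1 and Dab2 and 2 each at Postn and Timp2. The TEAD motif was in 8.54% of member windows and 8.38% elsewhere, and the RUNX motif in 3.20% and 2.61%. The CArG box, known from promoters of contractile genes, was in 1.07% and 0.361%, which is 3 member windows. The octamer, to which OCT4 binds, was in 0 of 281 windows (95% exact interval up to 1.30%), against 0.223% elsewhere. Among ESC-only windows it was in 3 of 91 near members, or 3.30% (95% exact interval 0.685 to 9.33). Elsewhere it was in 0.858% of them, which lies within that interval. In RefSeq promoter windows (GRCm38.p6), which 26 of the 41 members matched, the 250 bases before the start held a CArG box at 0 of 26 members and at 1.59% of all genes matched.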

How the data were processed

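The authors trimmed the ATAC-seq reads with Trim Galore (version 0.6.4), aligned them to mm10 with Bowtie2 (2.4.5), filtered them with SAMtools (1.16.1) and called peaks with MACS (1.4.2) in each library separately, per the labels and the study's methods. Peaks carry the MACS score the authors deposited, which grows as the p-value shrinks (the negative decimal logarithm times 10), and no score was below 50. At summits the deposited signal is the pileup, a whole number of tags with no correction for depth. A deeper library passes the threshold at more sites, so a missing peak is no proof of a closed site.

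Groups followed the sample titles. Members and comparison lists were chosen with earlier results of these data known. Overlapping peaks (1 bp or more) gave 335858 merged regions. Start sites and gene spans came from GENCODE M21. Peaks on sequences other than the chromosomes (525) were not used. Each pileup was divided by the scale of its library. The detection floor was the highest, over the libraries compared, of the median pileup of peaks scoring under 60, divided by the scale. Features with a peak in at least 4 of the 16 time course libraries were fitted with limma (3.58.1, R 4.3.3) on log2 values, with a trend and an adjusted p threshold of 0.05, after a test on simulated data. Since no library of the time course has a replicate, the p-values measure the spread over days. Counts were made in Python (3.11.15), with exact (Clopper-Pearson) intervals. The CpG ratio and the 5 windows without a motif were added after the data were seen. Named genes were those with the most MEF-only regions in their role, with a promoter peak in MEFs and in at most 1 ESC library, without a MEF promoter peak, or with the steepest slopes past the test, and Dab2 and Thbd, which the study names; named regions were the strongest MEF-only region of each role and the 4 most extreme of each kind. Other members named as examples, among them Col1a1, Pdgfra, Vim, Fn1, Mmp2 and Mmp14, were chosen after their values were seen. Alternatives covered the scaling, floor, peak threshold, distance, start sites, motif window and each day or ESC library left out.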

Additional observations from a re-analysis of the deposited data

How the results depend on the processing

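The choices were changed in turn, except that the floor was dropped only together with a stricter peak rule. With peaks scoring at least 100, MEFs had 12.7 more member promoters and 144 more distal regions with a peak than the ESC mean (8.33 and 200 in the report's setting). With the same number of top-scoring peaks in each library these were 12.3 and 67.7, the difference between paths in open distal regions turned from 5 to -8, and that in MEF-only regions was -12.9 percentage points. Within 10 kb and 50 kb the MEF excess of distal regions was 162 and 293. The AP-1 share was 16.7% near members and 24.1% elsewhere in windows that reached 50 bp to each side of the summit.

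Counts of called members moved most. The shares in parentheses are those of all promoters or regions called the same way in the same fit. With the library median as scale, the median of all promoters shifted to 0.12 in the path difference, 0 (0%) and 1 (0.237%) promoters fell with Nanog and NanogN70, and 0 distal regions (0.00395%) fell with Nanog. With the upper quartile as scale, 7 of 171 distal regions (2.7%) fell with Nanog. With a peak required in all 16 libraries and no floor, 2 of 23 promoters (0.676%) and 4 of 20 distal regions (2.35%) were lower with NanogN70, 1 (0.363%) and 2 (3.28%) promoters and 1 (0.881%) and 1 (5.42%) distal regions fell, and 0 (3.14%) rose. With a peak in at least 1 library, 1 (0.0128%) and 2 (0.45%) of 344 distal regions fell and 0 (0.424%) rose. With the 5 prime end as the only start site, 1 of 39 promoters (0.738%) fell with Nanog. Without day 3, 10 (2.15%) and 17 (5.22%) of 40 promoters and 12 (7.11%) and 33 (14.3%) of 160 distal regions fell, and 2 regions (2.8%) rose with NanogN70.

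Leaving out 1 library or day at a time gave 0 to 10 falling promoters with Nanog and 1 to 17 with NanogN70, 0 to 12 and 1 to 33 falling distal regions (6 with Nanog without day 5), and 0 to 2 rising regions. The path difference was -4 to -2.29 for member promoters, -6.30 to -3.15 points for MEF-only regions, and -9.71 to 14 for distal regions, turning negative without day 0 (-9.71) and without day 1 (-0.286). Except as said, the cause was not tested. In the other 121 comparisons of these results the direction was kept, and differences moved by less than 1 SD of the days or ESC libraries and counts by at most 1.5 times. For the path difference in distal regions that SD was 53.8, so that moves from 5 to 0.714 (without day 3) and to 14 (without day 8) are among them, as is a fall from 281 to 189 MEF-only regions at scores of at least 100. The path differences were paired by day. Replicate numbers are carried by the ESC libraries alone, so no block on them could be fitted. Depth per library is unknown, and peaks passed the threshold at 5 to 7 tags, so a promoter with few tags lies close to it.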
